A study of Mus musculus with 8 samples.

Results

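Of the 4398 Jmjd3 binding positions listed in mouse macrophages 2 h after stimulation, 535 (12.2%) lay where both H3K4me3 and H3K27me3 were also listed. They were chosen by overlap alone. Each Jmjd3 and H3K27me3 position was given a window of 250 bp to either side. A Jmjd3 peak was taken when its window touched an H3K4me3 cluster at 0 or 4 h and an H3K27me3 window at 0 or 4 h. A dense stretch of chromosome 11 before 3.2 Mb supplied 62 of the 535, and it is described apart at the end. The other 473 are the doubly marked Jmjd3 peaks of the text that follows unless all 535 are named. Overlap with the Jmjd3, H3K4me3 and H3K27me3 lists therefore chose these peaks, and values of those lists are descriptions. Pol II was used only to mark the peaks present in all 7 other lists.

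The cells were primary macrophages grown from the bone marrow of female Fvb mice of 6 to 8 weeks. The labels give no genotype beyond the strain and do not say how many mice went into a library. Jmjd3 was immunoprecipitated after 2 h of lipopolysaccharide (LPS) and interferon gamma from 500000000 cells. H3K4me3 and H3K27me3 were mapped after 4 h of the same treatment and in untreated cells (0 h), and RNA polymerase II (Pol II) at 0, 2 and 4 h, each from 100000000 cells. There was 1 library per antibody and time, so changes over time lack a replicate check and p-values are not given. Shares carry exact 95% Clopper-Pearson intervals in brackets and differences of shares carry 95% Newcombe intervals. Both cover counting error only, and neighbouring peaks are not independent.

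Jmjd3 is a histone demethylase that acts on trimethylated lysine 27 of histone H3, and its gene is switched on in macrophages by inflammatory stimuli. H3K27me3, its substrate, is laid down by the Polycomb repressive complex and marks silent genes, whereas H3K4me3 marks promoters, most of them active or poised. A region with both marks is often called bivalent, a state best known from the promoters of developmental genes in stem cells. In a population of cells, or across both alleles of a gene, the marks may also sit on different chromosomes, which mapping each mark separately cannot tell apart.

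Height below is the whole-number overlap count in the authors' list, and it is read only within its own list or beside the same list's other peaks. The Jmjd3 list ran from a height of 9 to 96 with a median of 10. The H3K27me3 list was longer at 4 h (89093 positions, lowest height 10) than at 0 h (59684, lowest height 9). Per the labels, more than 10000000 tags mapped uniquely in every library, and exact depths were unknown. The untreated Pol II list ended early on chromosomes 13 to 18 and X. These stretches held 33 of the 473 doubly marked peaks, which could not be listed with Pol II at 0 h.

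Both times carried H3K27me3 at 315 of the 473 peaks (66.6%), and it was present only at 4 h at 54 (11.4%) and only at 0 h at 104 (22.0%). The 0 h list began at height 9 and the 4 h list at 10, and the excess of the 0 h only class was not seen with an equal lowest height. With H3K27me3 of height 10 or more at both times, an alternative chosen after seeing the data, 438 peaks were left, 299 with the mark at both times, 70 (15.98%) only at 4 h and 69 (15.8%) only at 0 h. With all heights, the 3 classes held 405 (9.21%), 80 (1.82%) and 121 (2.75%) of all 4398 Jmjd3 peaks. Most of the 4398 had no H3K27me3, so these shares are on another base than those of the 473. Of the 315 peaks with the mark at both times, 155 were present in all 7 other lists and 160 were not. Over all 535 peaks the classes held 367, 58 and 110, and 198 were in all 7 lists. The same 198 are 4.5% of the whole Jmjd3 list, since any Jmjd3 peak in all 7 lists is doubly marked by definition. The 473 peaks were spread over 20 chromosomes. Joining those under 5 kb apart left 394 sites, of which 359 held a single peak.

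Doubly marked peaks were taller Jmjd3 peaks than those in H3K4me3 clusters without H3K27me3. Their median height was 12, against 11 at the 3243 peaks with H3K4me3 alone. A height above 13, the upper quartile of the list, was reached by 37.4% (33.0 to 42.0) of the doubly marked peaks and by 21.4% (19.999 to 22.9) of the H3K4me3-only peaks, against 22.1% of all Jmjd3 peaks. The difference was 16.0 points (11.5 to 20.7), and it was 23.1 points (18.7 to 27.5) over all 535. The excess was carried by the peaks with H3K27me3 at both times, of which 42.9% (37.3 to 48.5) passed that height. It was 24.1% (13.5 to 37.6) for the 4 h only class, whose difference from H3K4me3-only peaks was 2.67 points (-6.87 to 15.6), and 27.9% (19.5 to 37.5) for the 0 h only class, with a difference of 6.48 points (-1.36 to 15.9). Neither of those intervals left out 0.

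The share of H3K4me3-marked Jmjd3 peaks that also had H3K27me3 was low at the lower heights and highest at the top. It was 9.48% (7.80 to 11.4) at height 9 and 12.8% (9.59 to 16.5) at heights 14 to 16. At heights 21 to 30 it was 25% (19.0 to 31.8), and among the 76 peaks of height 31 to 96 it was 55.3% (43.4 to 66.7). Of the 42 doubly marked peaks in that last class, 34 were in all 7 lists, none was in the 4 h only class and 3 were in the 0 h only class. Outside the start of chromosome 11, 9 of the 10 tallest and 51 of the 100 tallest Jmjd3 peaks were doubly marked, 8 and 40 of them in all 7 lists.

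**Figure D1:**
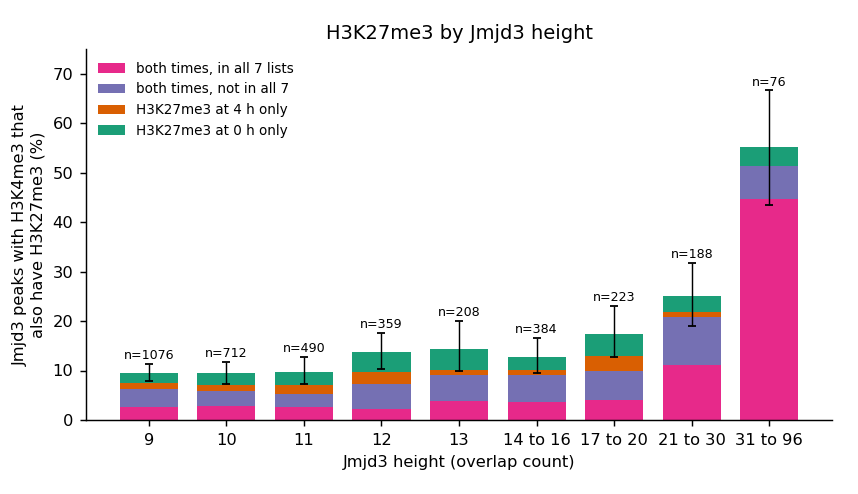
Share of Jmjd3 peaks in H3K4me3 clusters that also overlap H3K27me3 (vertical axis, %), by Jmjd3 height in overlap counts (horizontal axis), outside the start of chromosome 11. Bar sections stand for the 4 classes of H3K27me3 and list membership, black bars are exact 95% intervals of the whole share and n is the number of peaks; the tallest class reaches 55.3%, of which 44.7 points are peaks present in all 7 lists.

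The tallest doubly marked peak lay at position 146565410 of chromosome 5 (mm8, as are all positions), with a Jmjd3 height of 96. Its H3K27me3 height was 193 at 4 h and 191 at 0 h, the largest H3K27me3 heights among the 473 at either time. Its H3K4me3 clusters were 2168 bp wide at 4 h and 879 bp at 0 h, with heights of 130 and 116. Pol II there had heights of 38, 66 and 69 at 0, 2 and 4 h, and all 5 single positions of the other lists lay within 18 bp of the Jmjd3 position. No further H3K27me3 position was listed within 5 kb at either time, so the mark was listed there as an isolated summit. Pol II at 0, 2 and 4 h was listed 8, 15 and 17 bp from Jmjd3, so the summit was not particular to H3K27me3. Whether it also occurs without an antibody was not tested.

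Most of the other very tall peaks had the same compact form. Position 69864537 of chromosome 4 (Jmjd3 height 85) had H3K27me3 heights of 92 at 4 h and 83 at 0 h in H3K4me3 clusters of 726 and 1076 bp, and Pol II heights of 81, 98 and 93 at 0, 2 and 4 h. Position 75723144 of chromosome 12 (Jmjd3 height 63) had H3K27me3 heights of 95 and 87 at 4 and 0 h, clusters of 1178 and 1403 bp, and Pol II heights of 72, 112 and 94. Position 21832183 of chromosome 10 (Jmjd3 height 61) had H3K27me3 heights of 60 and 41 at 4 and 0 h and Pol II heights of 50, 57 and 35. None of the 3 had a further H3K27me3 position within 5 kb. The exception among the tallest was position 34871225 of chromosome 17 (Jmjd3 height 64). It sat in wide H3K4me3 clusters (7987 bp at 4 h, 6166 bp at 0 h) with low H3K27me3 (heights 14 and 15), 3 further H3K27me3 positions within 5 kb at each time, and the tallest Pol II of the 473 (heights 231, 394 and 366 at 0, 2 and 4 h).

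The rest of the 10 tallest peaks in all 7 lists were position 56663486 of chromosome 3, position 29698897 of chromosome 6, position 61254421 of chromosome 19, position 67977955 of chromosome 12 and position 181860330 of chromosome 2. Their Jmjd3 heights were 51 to 55, their H3K27me3 heights 43 to 98 at 4 h and 32 to 76 at 0 h, and their 4 h H3K4me3 clusters 1473 to 2027 bp wide. H3K27me3 was higher at 4 h than at 0 h at each of these positions, although the 4 h heights also ran higher across the list as a whole.

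Among the 155 peaks in all 7 lists, Jmjd3 height went together with narrow, coincident peaks. The 5 single positions of H3K27me3 and Pol II all lay within 50 bp of Jmjd3 at 28 of the 155 (18.1%, 12.4 to 25.04). They did so at 20 of the 55 peaks taller than 20 and at 8 of the 100 others. The 4 h H3K4me3 clusters had a median width of 1519 bp at the taller peaks and 3648 bp at the others, against 2870 bp over the whole 4 h list. No further H3K27me3 was listed within 5 kb at either time at 32 of the 55 taller and 42 of the 100 lower peaks. Median H3K27me3 height at 4 h was 50 at the taller peaks and 20 at the others, while median Pol II height at 2 h was 51 and 58. The taller peaks of this class thus had higher H3K27me3 than the lower ones and Pol II of much the same height. Both Pol II medians were above the upper quartile of the whole 2 h list (38). They were below the 2 h median of the H3K4me3-only peaks, which is given further on. No input or control library is named in the sources used here, and whether such coincident summits also occur without an antibody was not tested.

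Within the 500 bp that the rule allowed, H3K27me3 positions were concentrated close to Jmjd3. The nearest was within 100 bp at 53.3% (48.7 to 57.8) of the 473 peaks and at 55.5% of all 535, with a median distance of 87 bp for the 473. It was within 100 bp at 61.3% of the peaks marked at both times, which had a position of each list to be near. It was so at 37.0% of the 4 h only and 37.5% of the 0 h only peaks. Counted in 100 bp steps outwards from Jmjd3, 252, 90, 55, 50 and 26 of the 473 fell in the 5 steps inside the limit, and 28, 25, 13, 19 and 16 further Jmjd3 peaks with H3K4me3 fell in the 5 steps beyond it.

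At the limit itself, the peaks just inside were position 165345186 of chromosome X at 489 bp (Jmjd3 height 15) and position 60227273 of chromosome 10 at 490 bp (height 11), with position 3081382 of chromosome 11 in the dense stretch also at 490 bp (height 33). Those just outside were position 58411972 of chromosome 8 at 502 bp (height 12), position 100171967 of chromosome 11 at 506 bp (height 10) and position 57619350 of chromosome 10 at 507 bp (height 15). The peaks on either side of the limit were alike in height apart from the one in the dense stretch.

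Polycomb domains span several neighbouring positions, and the doubly marked peaks divided between such runs and isolated positions. A further H3K27me3 position beyond the overlapping window lay within 5 kb at 56.7% (52.1 to 61.2) of the 473 peaks at 4 h and at 51.4% (46.8 to 56.0) in untreated cells. The H3K4me3-only peaks had one in 8.54% at 4 h and 8.39% at 0 h. Over all 535 the shares were 61.7% and 57.0%. The contrast with the H3K4me3-only peaks is partly fixed by the choice. Those peaks have no H3K27me3 within 500 bp, and neighbouring H3K27me3 positions come in runs. At least 4 further positions were listed at 20.9% of the 473 at 4 h and 15.4% at 0 h. At the other extreme, 192 of the 473 (40.6%, 36.1 to 45.2) had no further position at either time.

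The classes varied in how isolated they were. Peaks marked at both times and not in all 7 lists lay most often in runs, with 28.1% (21.3 to 35.8) lacking any further position within 5 kb at either time, and the 4 h only class was close to them with 27.8% (16.5 to 41.6). Isolated positions made up 47.7% (39.7 to 55.9) of the peaks in all 7 lists and 55.8% (45.7 to 65.5) of the 0 h only class. At 4 h, 69.4% of the peaks not in all 7 lists and 48.4% of those in all 7 had a further position within 5 kb. In the 0 h only class the share was 43.3% at 4 h and 32.7% at 0 h.

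**Figure D2:**
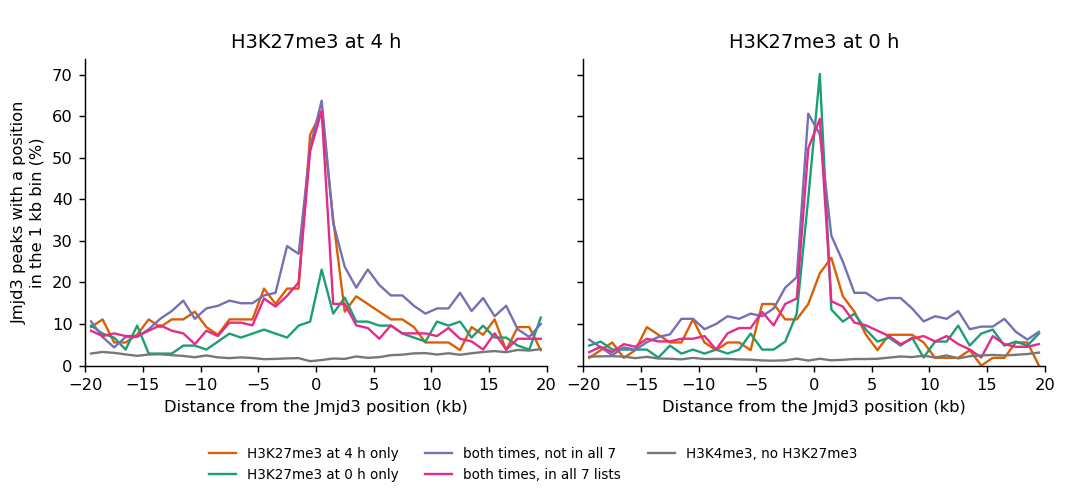
Percent of Jmjd3 peaks with an H3K27me3 position in each 1 kb bin (vertical axis) by distance from the Jmjd3 position in kb (horizontal axis), at 4 h (left) and 0 h (right), outside the start of chromosome 11. Lines stand for the 4 classes of doubly marked peaks and for the H3K4me3-only peaks; the central peak of each class is fixed by how it was chosen, and 1 to 20 kb out most bins lie above the H3K4me3-only line, most of all where H3K27me3 was present at both times and not all 7 lists were. The 4 h only class is below that line in 8 of its 38 flank bins at 0 h, and every other class at either time in at most 1. The flanks are also partly fixed by the choice, because neighbouring H3K27me3 positions come in runs.

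The H3K4me3 clusters at the doubly marked peaks were narrower and lower than at H3K4me3-only peaks. Median width was 3913 bp at 4 h and 3525 bp at 0 h, against 4997 and 4574 bp at H3K4me3-only peaks. Median H3K4me3 height was 133 at 4 h and 120 at 0 h, against 201 and 190. Clusters wider than the upper quartile of the 4 h list held 49.1% (44.5 to 53.8) of the doubly marked and 67.2% (65.5 to 68.9) of the H3K4me3-only peaks with a 4 h cluster. The difference was -18.1 points (-22.9 to -13.2), or -23.3 points against H3K4me3-only peaks of the same Jmjd3 heights. Over all 535 it was -12.1 points (-16.7 to -7.58). With each list limited to heights above its own median it was -3.23 points (-11.1 to 3.43), an interval that included 0. The classes ranged from narrow to wide, with median 4 h widths of 2754 bp at peaks in all 7 lists, 4127 bp at other peaks marked at both times, 4321 bp in the 4 h only class and 4803 bp in the 0 h only class. The 0 h only peaks also had the tallest H3K4me3 of the classes, with medians of 183 at 4 h and 169 at 0 h.

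H3K4me3 itself was listed at both times at 437 of the 473 peaks, only at 4 h at 25 and only at 0 h at 11. Among the 25 with H3K4me3 only at 4 h, 15 had H3K27me3 at both times, 5 only at 4 h and 5 only at 0 h, and 9 had Pol II at 2 h without Pol II at 0 h.

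The demethylase removes H3K27me3, and the listed heights of the mark at 4 and 0 h were compared where Jmjd3 sat. With 1 library per time and unknown depths, this describes the lists and cannot decide whether the mark was removed. Over the 315 peaks with H3K27me3 at both times, the ratio of the 4 h to the 0 h height had a median of 1.15 (quartiles 1.00 and 1.38). That ratio was taken between the tallest overlapping positions of each time. Over all 42807 H3K27me3 positions of the 0 h list with a 4 h partner, the ratio of the tallest partner to the position was 1.27 (1.1 to 1.5). Heights were not scaled to depth, so a ratio above 1 is not by itself a rise of the mark. Counted alike from each 0 h position, the median was somewhat lower at the doubly marked peaks. It was 1.17 (1 to 1.38) at their 325 positions with a partner and 1.28 (1.1 to 1.5) at the 42424 elsewhere. Taken per Jmjd3 peak, the ratio was 1.17 at peaks in all 7 lists and 1.15 at the others, and 1.11 where Pol II was listed at 2 h and not at 0 h.

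The lowest 4 h height was 10, so a 4 h height of at most 0.5 times that at 0 h could be seen only from a 0 h height of 20. Above that floor it occurred at 3 of 171 peaks (1.75%, 0.363 to 5.04), against 27 of 10466 positions genome-wide (0.258%, 0.17 to 0.375). All 3 were on chromosome 11. At position 78741410 the H3K27me3 height was 18 at 4 h and 55 at 0 h, while the H3K4me3 height was 176 and 24 and Pol II was unlisted at 0 h and had heights of 330 at 2 h and 254 at 4 h. At position 78740447, under 1 kb away, H3K27me3 was 12 at 4 h and 25 at 0 h. At position 9018833, a peak in all 7 lists with a Jmjd3 height of 37, H3K27me3 was 11 at 4 h and 26 at 0 h, H3K4me3 was 248 and 122, and Pol II was 14, 182 and 262 at 0, 2 and 4 h. In each of the 3, lower H3K27me3 at 4 h stood beside higher H3K4me3 and higher Pol II. The 2 neighbours share 1 site, so these are 2 sites. A ratio of 2 or more occurred at 9 of the 315 (2.86%), against 4.45% genome-wide, and the highest was 2.72 at position 72851825 of chromosome X (height 49 at 4 h, 18 at 0 h).

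**Figure D3:**
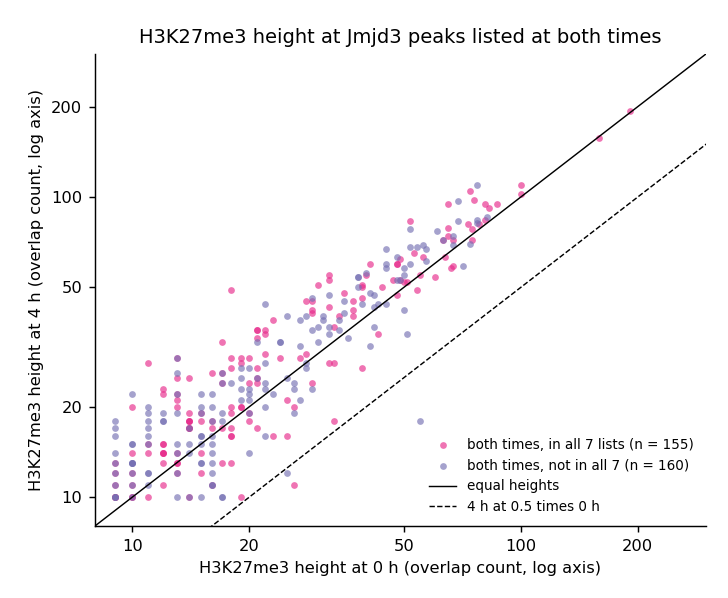
H3K27me3 height at 4 h (vertical axis) against height at 0 h (horizontal axis), both overlap counts on log axes, for the 315 doubly marked Jmjd3 peaks with the mark at both times. Each point is a peak, coloured by presence in all 7 lists; the solid line marks equal heights and the broken line a 4 h height of 0.5 times the 0 h height, and 3 points lie below the broken line.

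Counted from the H3K27me3 side, low positions of untreated cells were the ones that went unlisted at 4 h. Of the 422 H3K27me3 positions of the 0 h list at a doubly marked peak, 97 (23.0%, 19.1 to 27.3) had no overlapping 4 h position, against 28.3% of positions elsewhere. At heights 9 to 12 the share was 55.7% (46.8 to 64.4) at the doubly marked peaks and 39.6% (39.1 to 40.1) elsewhere. At heights 13 to 17 it was 14.9% (8.203 to 24.2) and 16.8% (16.2 to 17.5), and from height 18 it was 5.39% (2.72 to 9.44) and 9.42% (8.93 to 9.92). The direction thus differed by height, with more of the low positions and no more of the tall ones unlisted at 4 h. The choice of the peaks did not fix these shares. A 0 h H3K27me3 position at a Jmjd3 peak with H3K4me3 was counted whatever the 4 h H3K27me3 list held. The positions elsewhere were not limited to Jmjd3 peaks or to H3K4me3 clusters, and whether Jmjd3 itself accounts for the differences was not tested.

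The classes with H3K27me3 at 1 time only were made up of low H3K27me3 positions, many of them beside a position of the other time. In the 0 h only class the median H3K27me3 height was 10, and 35 of the 104 stood at height 9, below the lowest count in the 4 h list. A 4 h position lay within 1 kb of 31 of the 104 (29.8%), within 5 kb of 45, and over 20 kb away from 45. In the 4 h only class the median height was 12, and a 0 h position lay within 1 kb of 18 of the 54 (33.3%), within 5 kb of 32, and over 20 kb away from 18. H3K27me3 of height 18 or more was present at 14 of the 104 and 8 of the 54.

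The tallest Jmjd3 peaks of the 0 h only class had Pol II in their windows at 2 h and not at 0 h. Position 142467967 of chromosome 3 (Jmjd3 height 48) had H3K27me3 of height 10 at 0 h, no Pol II at 0 h, and Pol II heights of 216 at 2 h and 155 at 4 h. Position 117784305 of chromosome 11 (height 38) had H3K27me3 of 15 at 0 h with the nearest 4 h position 35916 bp away, and Pol II of 350 and 144 at 2 and 4 h. Position 10698092 of chromosome 16 (height 35) had H3K27me3 of 17 and Pol II of 392 at 2 h, 474 bp from Jmjd3 and so near the limit of overlap, and its nearest Pol II at 4 h lay outside the window at 940 bp. Position 107155086 of chromosome 9 (height 29) had H3K27me3 of 18 and Pol II of 203 at 2 h and 30 at 4 h. Their H3K4me3 heights were 198 to 243 at 4 h and 97 to 198 at 0 h. The untreated Pol II list had a position 940 bp from the chromosome 11 peak and 975 bp from the chromosome 16 peak, so that Pol II was absent from the window there and not from the neighbourhood. The fifth, position 37894477 of chromosome 7 (height 26), had Pol II of 65 and 70 at 2 and 4 h and a 0 h position at 547 bp.

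The 4 h only class was led by position 78737993 of chromosome 11 (Jmjd3 height 27), with H3K27me3 of height 10 at 4 h, H3K4me3 of 176 and 21 at 4 and 0 h, and Pol II of 347 at 2 h and 282 at 4 h without any at 0 h. Position 79175003 of chromosome 15 (height 22) had Pol II at all 3 times, with heights of 20, 106 and 70. The next were position 31299175 of chromosome 17 (height 20), whose H3K4me3 was listed at 0 h alone with a height of 11, position 121715183 of chromosome 3 (height 19) and position 120607803 of chromosome 13 (height 19). H3K27me3 at the 5 had heights of 10 to 21 at 4 h, beside a median of 13 over the whole 4 h list. The 5 tallest peaks marked at both times and not in all 7 lists lay on chromosomes X, 5 and 9. Those on X, at 165333500, 165339117 and 165337044 (Jmjd3 heights 56, 52 and 34), lay past the end of the untreated Pol II list. Position 115183558 of chromosome 5 (height 48) had Pol II in its window only at 0 h (height 30). Positions at 2 and 4 h lay 595 and 603 bp away. Position 110126490 of chromosome 9 (height 32) had Pol II of 24 and 18 at 2 and 4 h and none at 0 h.

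Pol II, the list the choice did not use, was at fewer of the doubly marked than of the H3K4me3-only peaks at every time. This held with windows of 250 bp to either side. At 2 h Pol II was about as frequent at doubly marked peaks as at all Jmjd3 peaks. At 0 h it overlapped 58.6% (54.0 to 63.0) of the doubly marked and 77.1% (75.6 to 78.5) of the H3K4me3-only peaks, against 67% of all Jmjd3 peaks. The difference between the first 2 was -18.5 points (-23.2 to -13.9). At 2 h it overlapped 81.0% (77.1 to 84.4) and 88.2% (87.0 to 89.3), against 80.7% of all, a difference of -7.22 points (-11.1 to -3.74). At 4 h it overlapped 73.4% (69.1 to 77.3) and 86.9% (85.7 to 88.01), against 78.6% of all, a difference of -13.5 points (-17.8 to -9.53). None of these intervals reached 0. Without the peaks past the end of the untreated Pol II list, the 0 h shares were 62.95% (58.3 to 67.5) and 78.7% (77.2 to 80.1). Against H3K4me3-only peaks of the same Jmjd3 heights the differences were -18.6, -8.92 and -15.4 points. Over all 535 they were -14.7 (-19.1 to -10.5), -5.70 (-9.32 to -2.50) and -11.2 points (-15.2 to -7.58). With the chromosome ends left out of that set, they were -12.3 (-16.7 to -8.01), -6.23 (-10.0 to -2.90) and -11.2 points (-15.3 to -7.46). The differences were smaller with narrower windows. With windows of 100 bp to either side for every single position they were -3.65 (-8.83 to 1.48), -2.07 (-7.09 to 2.67) and -2.66 points (-7.73 to 2.16) over all peaks so chosen, and no interval left out 0. When windows had to share 50% of the shorter one, the difference at 2 h, -1.74 points (-6.43 to 2.62), also included 0, while those at 0 and 4 h, -7.02 (-12.01 to -2.09) and -5.37 points (-10.2 to -0.802), did not.

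The gap was widest at 0 h with all stretches counted, but close to that at 4 h once the chromosome ends were left out. Doubly marked peaks more often had Pol II listed at 2 h and not at 0 h. They did so at 127 of 473 (26.8%, 22.9 to 31.1), against 463 of 3243 H3K4me3-only peaks (14.3%, 13.1 to 15.5) and 17.3% of all Jmjd3 peaks. The difference was 12.6 points (8.58 to 16.9), or 11.5 points at the same Jmjd3 heights. Over all 535 it was 10.3 points (6.604 to 14.3), and with windows of 100 bp to either side it was 4.51 points (0.546 to 8.97). Without the chromosome ends that the untreated Pol II list lacked, the shares were 97 of 440 (22.0%, 18.3 to 26.2) and 403 of 3176 (12.7%, 11.6 to 13.9). Of those 97, 17 had a 0 h Pol II position within 1 kb. These shares are over all peaks, and only a peak without Pol II at 0 h can be counted in them. In the same sets Pol II at 0 h was at 277 of 440 doubly marked and 2500 of 3176 H3K4me3-only peaks. The higher share at doubly marked peaks thus reflects how many lacked Pol II at 0 h. It does not show that such peaks were more often listed at 2 h than H3K4me3-only peaks lacking it. Pol II at all 3 times was at 51.4% (46.8 to 56.0) of the doubly marked and 72.3% (70.7 to 73.8) of the H3K4me3-only peaks, and Pol II at none of the 3 times at 13.5% (10.6 to 16.9) and 6.88% (6.03 to 7.80), against 61.6% and 13.6% of all Jmjd3 peaks. Pol II at 2 h alone, listed neither before nor after, was at 37 doubly marked peaks (7.82%, 5.57 to 10.6) and 2.78% (2.24 to 3.40) of the H3K4me3-only peaks. Without the chromosome ends it was at 31 of 440 (7.05%, 4.84 to 9.85) and 2.77% (2.23 to 3.403).

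Where Pol II was present it was also lower. Median heights were 25, 55 and 47 at 0, 2 and 4 h at the doubly marked peaks, against 52, 137 and 110 at the H3K4me3-only peaks. The 0 h only class stood nearest to the H3K4me3-only peaks, with medians of 30, 98 and 79. The 4 h only class had 25, 49 and 50, and the class marked at both times 22, 44 and 39.

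By class, Pol II at 0 h was at 42.6% (29.2 to 56.8) of the 4 h only peaks, 62.5% (52.5 to 71.8) of the 0 h only peaks and 60% (54.4 to 65.5) of those marked at both times. Without the chromosome ends these shares were 46.9%, 65% and 64.9%. The 4 h only class was below the 0 h only class by 19.9 points at 0 h (difference -19.9, -34.9 to -3.55) and by 15.8 points at 4 h (difference -15.8, -30.9 to -0.953). At 2 h the difference of -8.62 points (-23.0 to 4.29) did not leave out 0. Pol II at 2 h and not 0 h was at 35.2% (22.7 to 49.4), 23.1% (15.4 to 32.4) and 26.7% (21.9 to 31.9) of the 3 classes in the same order. The 4 h only class exceeded the 0 h only class by 12.1 points, with an interval (-2.37 to 27.2) that included 0.

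**Figure D4:**
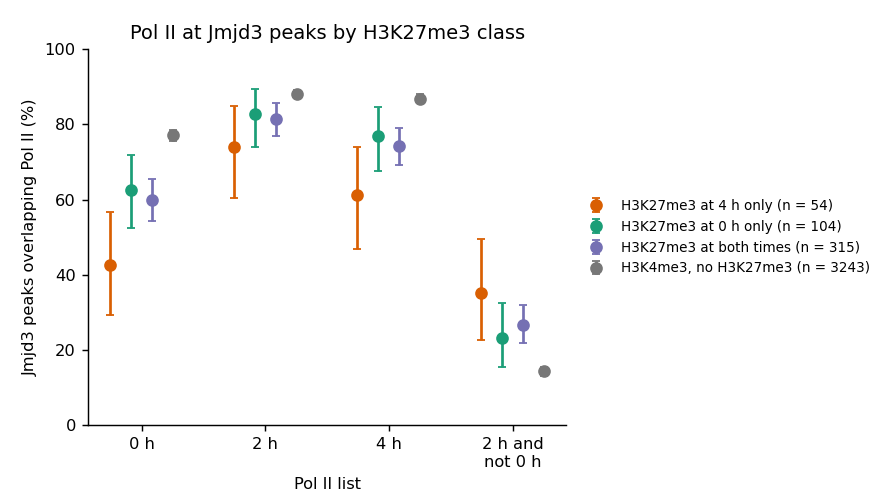
Percent of Jmjd3 peaks overlapping Pol II (vertical axis) at 0, 2 and 4 h and at 2 h without 0 h (horizontal axis), for the 3 H3K27me3 time classes of doubly marked peaks and for the H3K4me3-only peaks, outside the start of chromosome 11. Points are shares and bars exact 95% intervals. At 0 h the doubly marked classes lie between 42.6% and 62.5%, below the 77.1% of H3K4me3-only peaks. Peaks past the end of the untreated Pol II list are counted here. Without them the 0 h values are 46.9% to 65% for the classes and 78.7% for H3K4me3-only peaks.

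The 5 tallest Pol II peaks at 2 h among doubly marked peaks without Pol II at 0 h, chromosome ends left out, were those at 10698092 of chromosome 16 and 117784305 of chromosome 11 given above and 3 from 1 short stretch. Positions 78737993 to 78745945 of chromosome 11 held 6 doubly marked peaks, 3 with H3K27me3 at both times and 3 only at 4 h. Pol II was listed at none of the 6 at 0 h, at 5 of them at 2 h with heights of 209 to 347 and at all 6 at 4 h with heights of 155 to 282. The nearest 0 h Pol II was 28052 to 36004 bp away. H3K4me3 over the first 4 of them was a cluster of height 176 and 7532 bp at 4 h, against clusters of height 21 and 24 and 2868 to 2981 bp at 0 h. The last 2 lay in a 4 h cluster of height 12 with none at 0 h. H3K27me3 here was listed at all 6 at 4 h, with heights of 10 to 18, and at 3 of the 6 at 0 h, with heights of 25, 55 and 15. At 4 h the H3K27me3 was thus spread over more positions, each low, while the 2 taller positions of untreated cells were lower.

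The stretches below were singled out after their values were seen, as runs of at least 5 doubly marked peaks under 5 kb apart. The longest was on chromosome 7 from 37885201 to 37909781, with 15 peaks over 24.6 kb, of which 10 had H3K27me3 at both times and 5 were in all 7 lists. Its Jmjd3 heights were 9 to 49, Pol II was at 11, 13 and 9 of the 15 at 0, 2 and 4 h, and Pol II height at 2 h reached 231. On chromosome X, 11 peaks from 165333500 to 165352805 all had H3K27me3 at both times (heights 19 to 84 at 4 h and 13 to 77 at 0 h) and Pol II at 2 and 4 h, and lay beyond the end of the untreated Pol II list. On chromosome 13, 8 peaks from 120606649 to 120614100 lay in 1 H3K4me3 cluster of height 237 at 4 h, also beyond that end. A run of 5 on chromosome 7 from 63952508 to 63963731 had low Jmjd3 (heights 9 to 13) and low H3K4me3 (11 at 4 h and 12 to 14 at 0 h), while its H3K27me3 heights were 18 to 26 at 4 h and 12 to 13 at 0 h. The chromosome X and 13 runs thus cannot show whether Pol II was there before stimulation.

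Chromosome X stood apart in how often a Jmjd3 peak was doubly marked. It held 59 Jmjd3 peaks, 1.34% of the list, and 43 of them (72.9%, 59.7 to 83.6) were doubly marked. On autosomes outside the start of chromosome 11 it was 430 of 4267 peaks (10.1%, 9.19 to 11.02). Without the 17 peaks near the chromosome's end, from which the run above comes, it was 30 of 42 (71.4%, 55.4 to 84.3). H3K27me3 was at both times at 35 of the 43, and 17 were in all 7 lists. H3K4me3 clusters as a whole, with or without Jmjd3, had a like excess. H3K27me3 of either time overlapped 73.7% (69.9 to 77.3) of the 4 h clusters on X and 28.2% (27.6 to 28.9) of those on autosomes, and 71.7% (67.9 to 75.3) and 25.6% (24.99 to 26.2) of the 0 h clusters. The mice were female, and in female cells the inactive X chromosome is known to carry H3K27me3 over much of its length. Its part in these values was not tested. Of the 30 peaks before the chromosome's end, 24 (80%, 61.4 to 92.3) had Pol II at 0 h and 4 had it at 2 h and not at 0 h. The autosomes ranged from 5.90% of Jmjd3 peaks doubly marked on chromosome 11 outside its start to 16.1% on chromosome 13. The start of chromosome 11, where 62 of 72 Jmjd3 peaks were doubly marked, would raise the chromosome 11 value.

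Some H3K4me3 clusters held both kinds of peak. Of the 400 4 h clusters with a doubly marked peak, 62 also held an H3K4me3-only peak. Of the 3160 H3K4me3-only peaks with a 4 h cluster, 232 (7.34%, 6.46 to 8.31) lay in one that held H3K27me3 elsewhere. That share is partly fixed by the choice of these peaks, which have no H3K27me3 within 500 bp.

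The start of chromosome 11 held 72 Jmjd3 peaks between 3000467 and 3099135, and 62 of them were doubly marked. Their Jmjd3 heights were 18 to 71 with a median of 40.5, all above the upper quartile of the list. Of the 62, 43 were in all 7 lists, 9 more had H3K27me3 at both times, 4 only at 4 h and 6 only at 0 h. The same stretch held 65 H3K27me3 positions at 4 h and 66 at 0 h, and up to 3.2 Mb 90, 90 and 85 Pol II positions at 0, 2 and 4 h. Median spacing was 1076 bp for Jmjd3, 1075 and 1122 bp for H3K27me3 at 4 and 0 h, and 1113, 1135 and 1123 bp for Pol II at 0, 2 and 4 h. The median spacing was thus alike in 6 lists of different antibodies and times. The stretch was not evenly filled, as no Jmjd3 was listed between 4.12 and 21.8 kb from the first position and no H3K27me3 between 3.53 and 27.1 kb at 4 h and between 4.27 and 26.95 kb at 0 h. One 4 h H3K4me3 cluster ran over 51085 bp with a height of 276, against a list median of 2870 bp, where the untreated list had clusters of up to 25640 bp.

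The tallest of them was position 3093181, with a Jmjd3 height of 71, H3K27me3 heights of 58 and 63 at 4 and 0 h, and Pol II heights of 87, 240 and 200 at 0, 2 and 4 h. The next was position 3065637 with a Jmjd3 height of 57 and H3K27me3 of 68 and 64, followed by positions 3043274, 3044847 and 3042651 with Jmjd3 heights of 56, 54 and 51. The peaks in the widest cluster, from position 3050233 on, had Jmjd3 heights of 36 to 44 in the first 5 positions. Pol II at 0 h was at 56 of the 62 (90.3%, 80.1 to 96.4). This share cannot be set against that of the other 473. With 0 h Pol II positions a median of 1113 bp apart here and overlap reaching to 500 bp, density alone makes overlap frequent. Of the 5 with Pol II at 2 h and not at 0 h, all 5 had a 0 h position within 1 kb. The 10 Jmjd3 peaks of the stretch without H3K27me3 were left with the H3K4me3-only peaks where all 535 are compared.

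**Figure D5:**
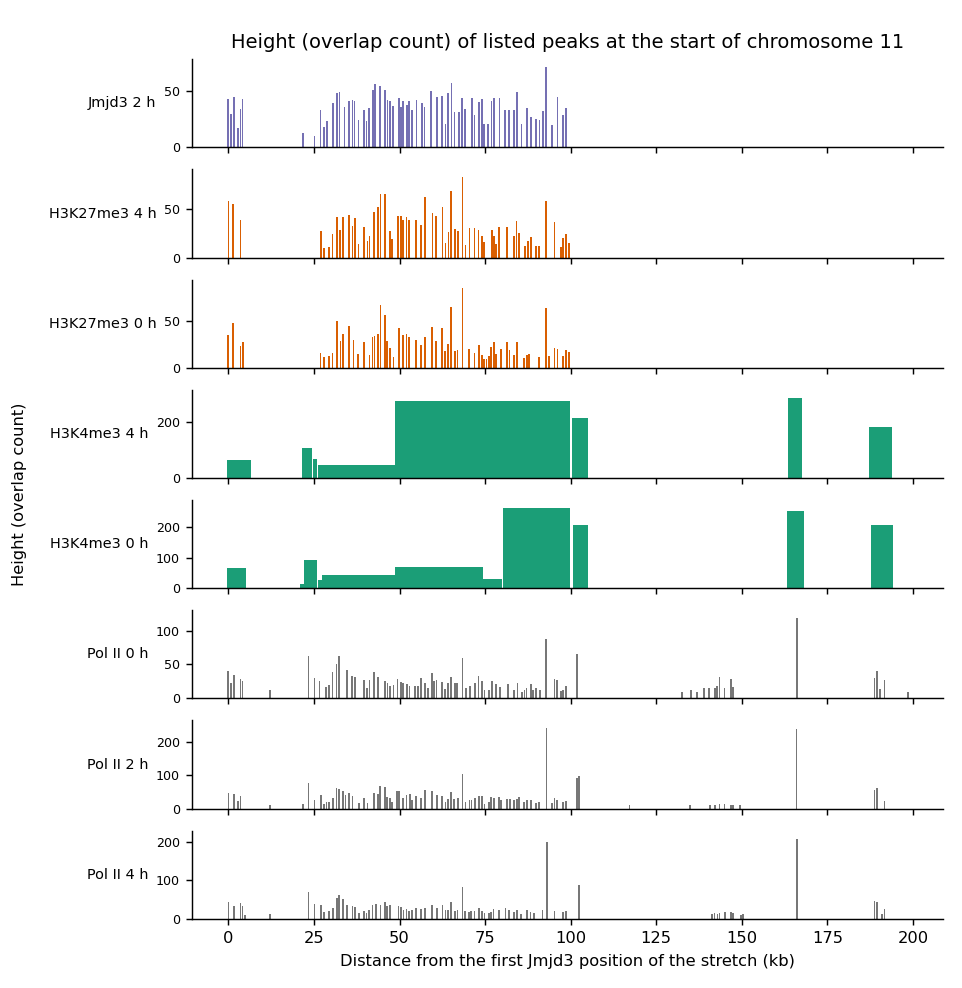
Height (vertical axes, overlap counts) of every listed peak at the start of chromosome 11, by distance in kb from the first Jmjd3 position there (horizontal axis), in 1 panel per list. H3K4me3 bars span each cluster and the other bars mark single positions; the median spacing of Jmjd3, H3K27me3 and Pol II is 1075 to 1135 bp, Jmjd3 and H3K27me3 have a gap after the first few kb and end by 99.4 kb, and Pol II and H3K4me3 go on beyond that.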

How the data were processed

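Each library was deposited as 1 peak list, in which the authors gave a whole-number overlap count per peak, a signal called height here. Neither headers nor labels mention scaling by depth or by a control. H3K4me3 peaks have 2 borders and all other peaks 1 position, per the file headers. The build is mm8 per the submitters' processing notes. The sources used here do not name the aligner, peak caller, threshold or control. Per the labels, chromatin fragments of 200 to 300 bp were sequenced. The members and the lists were chosen with earlier results of these data known.

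Single positions were widened by 250 bp to either side, and intervals sharing at least 1 bp counted as overlapping. Heights were used within their own list, except in ratios between the 2 H3K27me3 lists, which were set beside the ratio over all shared positions. Heights and overlaps were compared with Jmjd3 peaks in H3K4me3 clusters without H3K27me3, as they were and weighted to the members' Jmjd3 heights in 9 classes. Intervals are Clopper-Pearson for shares and Newcombe for differences. A chromosome end was a stretch past the last untreated Pol II position where the 2 and 4 h lists went on for over 1 Mb. Regions were named by Jmjd3 height: the 10 tallest in all 7 lists, the 5 tallest of each other class and of the start of chromosome 11, the 5 with the tallest 2 h Pol II and none at 0 h, the first 5 in the widest 4 h cluster, and 3 on either side of the distance limit. The runs of peaks, the extremes of the H3K27me3 ratio and chromosome X were picked out after their values were seen.

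Alternatives were windows of 100 and 500 bp to either side, an overlap of at least 50%, peaks above each list's median height, autosomes only, 1 Jmjd3 peak per H3K4me3 cluster, and leaving out the start of chromosome 11, the chromosome ends or the members in all 7 lists. Counting only H3K27me3 of height 10 or more was added after seeing the data. No annotation of mm8 was used, so genes, macrophage marker genes and sequences are not analysed here. The tools were scipy 1.17.1, numpy 2.4.6, pandas 2.3.3 and matplotlib 3.10.9 under Python 3.11.15. In a test on simulated data, 1222 of 1222 planted overlaps among 4000 peaks were found again, and 7 overlaps of the real lists were identical in bedtools 2.31.1.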

Additional observations from a re-analysis of the deposited data

How the results depend on the processing

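Each result over all 535 doubly marked Jmjd3 peaks was recomputed with 1 choice changed at a time, giving 148 values. A count was taken as close when within 1.5 times the reported one, and a share or difference when inside the 95% interval of the reported value. By that rule 98 were close, 50 moved and none reversed. Leaving out the chromosome ends or chromosome X moved none of the 14 values recomputed for each. With H3K27me3 of height 10 or more at both times, all 14 were also close, but the 75 peaks only at 4 h equalled the 75 only at 0 h, against 58 and 110 with all heights. No paired analysis was possible because every antibody and time had 1 library.

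With windows of 100 bp to either side, 232 peaks had H3K27me3 at both times, 106 were in all 7 lists and 74.6% had H3K27me3 within 100 bp; the difference in tall Jmjd3 peaks was 28.3 points, those in Pol II -3.65, -2.07 and -2.66 points at 0, 2 and 4 h, and that in Pol II at 2 h and not 0 h 4.51 points. With 500 bp to either side, 314 peaks were in all 7 lists, 62.7% had a further 0 h H3K27me3 position within 5 kb and 46.1% had H3K27me3 within 100 bp. With an overlap of at least 50%, 118 peaks were in all 7 lists, 68.75% had H3K27me3 within 100 bp, and the Pol II differences were -7.02, -1.74 and -5.37 points.

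With each list limited to heights above its own median, 158 peaks were doubly marked, 108 with H3K27me3 at both times, 13 only at 4 h, 37 only at 0 h and 28 in all 7 lists; the Pol II differences at 0 and 4 h were -26.96 and -16.05 points, that in Pol II at 2 h and not 0 h 22.2 points, that in wide H3K4me3 clusters -3.23 points (-11.1 to 3.43, which includes 0), and further H3K27me3 lay within 5 kb of 70.25% at 4 h and 61.4% at 0 h. Without the peaks in all 7 lists, which have Pol II and H3K27me3 by definition, 337 peaks were left. H3K27me3 was at both times at 169 of them and within 100 bp at 50.45%. The difference in tall Jmjd3 peaks was 13.4 points. Those in Pol II were -36.9, -16.03 and -25.6 points, and that in Pol II at 2 h and not 0 h was 24.8 points. Only doubly marked peaks were taken out, while H3K4me3-only peaks with Pol II at all 3 times stayed in. These Pol II differences were thus widened by the choice itself.

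With 1 Jmjd3 peak per cluster, 37 peaks had H3K27me3 only at 4 h, the differences were 16.7 points in tall Jmjd3 peaks, -20.1 in Pol II at 0 h and -18.4 in wide clusters, and further H3K27me3 lay near 51.03% at 4 h and 45.6% at 0 h. Without the start of chromosome 11 the differences were 16.0 points in tall Jmjd3 peaks and -18.1 in wide clusters, and 56.7% and 51.4% had further H3K27me3 at 4 and 0 h. Weighted to the same Jmjd3 heights, the difference in wide clusters was -19.9 points. Further H3K27me3 lay within 1 kb of 28.6% at 4 h and 24.1% at 0 h, and within 20 kb of 69.3% and 65.6%. The Pol II differences at 0 h ran from -36.9 to -3.65 points over these alternatives, and their direction was the same in all. Depth and threshold per library were unknown, so lists of unequal length limit every statement of presence at 1 time only.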
